A study of Mus musculus with 3 samples.

Results

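The 10 genes described here encode the hormones and granule proteins of the pancreatic islet: Ins1, Ins2, Iapp, Gcg, Sst, Ppy, Pyy, Chga, Chgb and Pcsk2. They were measured on 3 one-colour mouse arrays, of cells in acinar-to-ductal metaplasia (ADM), of duct cells and of acinar cells. The cells came by laser microdissection from frozen pancreas of 3 wild-type mice, 48 h after caerulein, a cholecystokinin analogue that causes pancreatitis by overstimulating acinar cells. All 3 groups shared that treatment, no untreated pancreas was analysed here, and neither the mouse strain nor whether an array held RNA of 1 mouse or a pool is given in the sources used here. None of the groups was labelled as islet tissue. The genes were found by the RefSeq accession of each probe, which gave 11 probes for 10 of the 21150 named genes, and each gene had a probe well above background on all 3 arrays. Each group had a single array, so no comparison could be tested, and every difference below stands between 2 arrays without a replicate check.

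Islets are clusters of endocrine cells set within the acinar tissue of the pancreas. Beta cells make insulin, which lowers blood glucose, and co-secrete islet amyloid polypeptide (Iapp). Alpha cells make glucagon (Gcg), delta cells somatostatin (Sst), which restrains the secretion of its neighbours, and PP cells pancreatic polypeptide (Ppy). The granins chromogranin A (Chga) and chromogranin B (Chgb) are packed with the hormones into dense-core granules, and the convertase Pcsk2 cuts prohormones there. In adult mice these genes mark endocrine cells and some neurons, and acinar and duct cells are not known as a main source of the hormones. In bulk samples like these, fewer cells of a type and less RNA per cell cannot be told apart.

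Signal of all 10 genes was present on every array, and the acinar array was the highest for none of them. Levels are log2 processed signal minus the 75th percentile of the array, so a level of 0 is that percentile. Levels compare arrays for 1 probe, and do not compare genes with each other. The ADM array had the highest level for 6 genes (Ins1, Ins2, Iapp, Gcg, Chga and Chgb) and the duct array for 4 (Sst, Ppy, Pyy and Pcsk2). Among the 9539 genes well above background on all 3 arrays, 22.3% were highest on the ADM array, 35.5% on duct and 42.3% on acinar. The split of 6 and 4 was the same under all 7 processing alternatives. The lowest level lay on the duct array for 4 genes (Ins1, Ins2, Chga and Chgb) and on the acinar array for 6, but with normexp it lay on duct for 1 and with median scaling for 2.

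Repeated spots gave the only error that could be measured, and it covers spotting and scanning alone. Gcg, Sst and Chgb had 10 spots on each array. The other genes had 1 spot a probe, and for them the error of a difference was taken from the median SD of probes with at least 5 spots, 0.113 log2 units on ADM, 0.0931 on duct and 0.130 on acinar. The 75th-percentile signal was 72.2 intensity units on ADM, 95.7 on duct and 35.2 on acinar, and no spot was saturated. Acinar enzyme genes made up 5.17% of the named-gene signal on ADM, 0.978% on duct and 12.0% on acinar. Duct markers were at least 2-fold higher in duct than in acinar in 12 of 13 genes compared, where 27.4% of all genes were. Cftr, however, was not well above background on any array. In ADM against acinar 7 of 13 duct markers were higher by that fold and 2 lower, where 21.8% and 22% of all genes were. In ADM against duct 2 of 13 were higher and 9 lower, where 21.6% and 24.8% were.

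**Figure D1:**
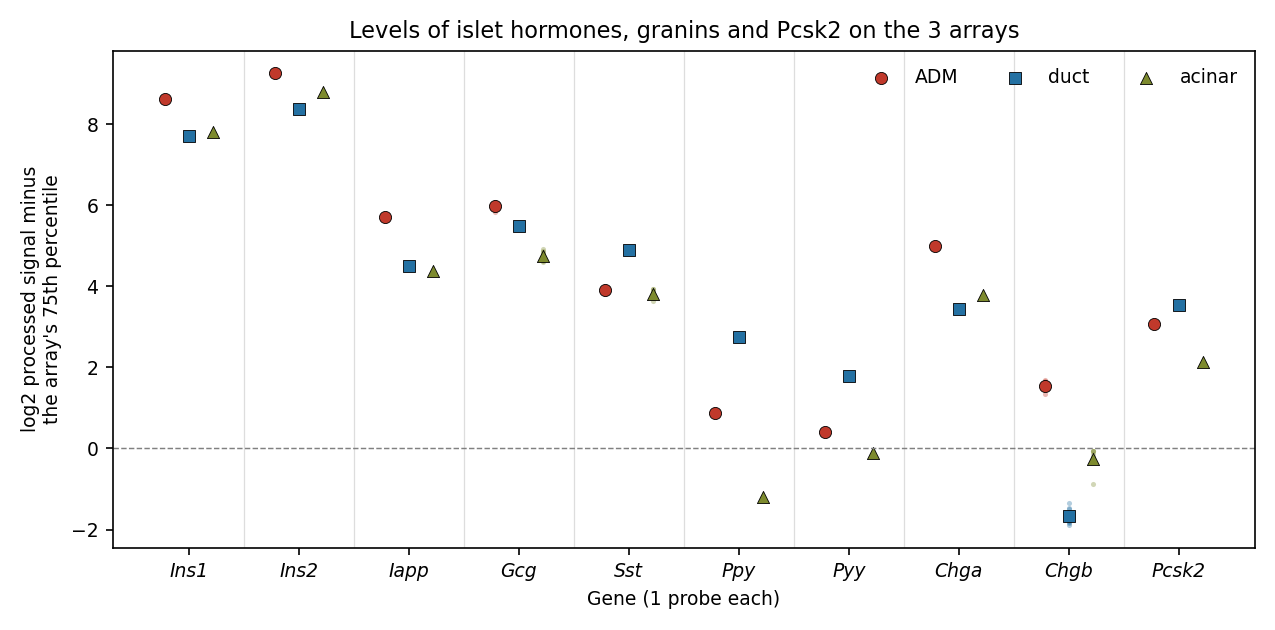
Level of each gene (log2 processed signal minus the array's 75th percentile) on the ADM, duct and acinar arrays. Large symbols are the probe's level and small dots the 10 single spots of Gcg, Sst and Chgb, many of them hidden behind the symbol. The ADM symbol is the highest for 6 genes and the duct symbol for Sst, Ppy, Pyy and Pcsk2.

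The promoters of genes that were highest on different arrays are shown for orientation. They are the 250 bases before the RefSeq gene start on build GRCm38.p6, and 9 of the 10 genes, all but Ins2, matched an entry. Ins1 lies at chr19:52264047-52264296 (plus strand) and Iapp at chr6:142298175-142298424 (plus strand), and both are beta-cell genes highest on ADM. Gcg lies at chr2:62483654-62483903 (minus strand), Sst, highest on duct, at chr16:23890845-23891094 (minus strand), and Chgb, the gene with the widest gap between ADM and duct, at chr2:132781392-132781641 (plus strand). Capitals mark exact matches, on either strand, to TAAT (a homeodomain core), CATCTG (an E-box of insulin promoters), TGACGTCA (the cyclic AMP response element) and TATAAA (common in core promoters).
Ins1: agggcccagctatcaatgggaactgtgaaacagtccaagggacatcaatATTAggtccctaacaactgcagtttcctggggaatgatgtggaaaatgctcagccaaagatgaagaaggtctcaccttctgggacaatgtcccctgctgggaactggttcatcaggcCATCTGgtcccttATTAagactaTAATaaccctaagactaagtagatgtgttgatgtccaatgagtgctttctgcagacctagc
Iapp: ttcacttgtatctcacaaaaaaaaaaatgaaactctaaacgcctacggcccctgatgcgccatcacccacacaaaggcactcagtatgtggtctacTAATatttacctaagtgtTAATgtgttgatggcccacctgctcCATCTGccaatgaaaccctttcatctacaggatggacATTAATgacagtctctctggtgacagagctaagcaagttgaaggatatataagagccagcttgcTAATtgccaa
Gcg: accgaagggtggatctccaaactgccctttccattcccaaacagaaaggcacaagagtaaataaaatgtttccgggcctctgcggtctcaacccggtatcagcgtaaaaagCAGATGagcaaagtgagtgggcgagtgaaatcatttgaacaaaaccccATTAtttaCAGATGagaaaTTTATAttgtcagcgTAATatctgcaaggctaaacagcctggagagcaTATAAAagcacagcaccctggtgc
Sst: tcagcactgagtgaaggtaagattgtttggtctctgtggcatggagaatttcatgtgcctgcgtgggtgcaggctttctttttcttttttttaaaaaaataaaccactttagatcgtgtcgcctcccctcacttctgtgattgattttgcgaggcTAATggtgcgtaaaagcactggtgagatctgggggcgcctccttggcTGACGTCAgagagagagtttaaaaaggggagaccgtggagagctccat
Chgb: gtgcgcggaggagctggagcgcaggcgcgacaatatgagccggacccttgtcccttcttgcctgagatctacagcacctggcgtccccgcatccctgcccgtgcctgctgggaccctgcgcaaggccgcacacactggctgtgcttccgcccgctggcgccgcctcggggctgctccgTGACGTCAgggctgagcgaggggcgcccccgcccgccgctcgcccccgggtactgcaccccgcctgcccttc
Matches to TAAT were found in 5 of the 9 promoters and in 55.3% of all 27025 promoters cut to the same length. CATCTG was found in 3 of the 9 (Ins1, Iapp and Gcg) and in 14.5% of all promoters. TGACGTCA was found in 2 of the 9, Sst and Chgb, and in 1.62% of all. TATAAA was found in 2 of the 9, Gcg and Ppy, and in 13.0% of all. In Iapp, 1 pair of TAAT matches on opposite strands overlaps. The holders of CATCTG were all highest on ADM, as were 6 of the 10 genes as a whole, among them Chga and Chgb, which held no CATCTG. The holders of TGACGTCA were highest on different arrays. A link between a motif and an array was not tested. A match describes letters in the window and no binding site.

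The insulin genes were bright on all 3 arrays and highest on ADM. Ins2, the ancestral insulin gene, had levels of 9.25 on ADM, 8.36 on duct and 8.80 on acinar, from signals of 44105, 31529 and 15699 intensity units. Ins1, the second insulin gene of mice and a retroposed copy of Ins2, had levels of 8.61 on ADM, 7.70 on duct and 7.80 on acinar. The 2 insulin genes thus shared 1 order, ADM above acinar above duct. Ins2 differed by 0.45 log2 units between ADM and acinar, by −0.44 between duct and acinar and by 0.89 (1.85-fold) between ADM and duct. Ins1 differed by 0.81 between ADM and acinar, by −0.10 between duct and acinar and by 0.91 (1.88-fold) between ADM and duct. None of these 6 differences reached 2-fold, although normexp background correction put ADM over acinar by 1.04 for Ins2 and by 1.28 for Ins1. The difference of Ins1 between duct and acinar was smaller than its spot error of 0.160. That order of duct and acinar was not stable for the insulins, since normexp put duct above acinar for Ins2 and Ins1 (0.35 and 0.57), and median scaling did so for Ins1 (0.28). Between ADM and duct, the differences of the 2 genes lay within 0.02 log2 units of each other. The insulin genes are close relatives, so that a probe may also bind the transcript of the other copy, which was not tested.

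Iapp, whose peptide is stored in the insulin granule, had levels of 5.71 on ADM, 4.49 on duct and 4.39 on acinar. Its level on ADM was 2.50-fold above acinar (1.32 log2 units) and 2.33-fold above duct (1.22), while duct and acinar lay within the spot error of 0.160 (difference 0.10). With normexp its difference between ADM and duct was 0.95, just inside 2-fold. Relative to Ins2 on the same arrays, Iapp was 0.87 log2 units higher in ADM against acinar and 0.33 higher in ADM against duct, values that do not depend on the scaling.

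Glucagon signal was also highest on ADM. The 10 Gcg spots ran from 5.84 to 6.08 on ADM, from 5.42 to 5.54 on duct and from 4.61 to 4.92 on acinar. The 3 sets of scaled levels did not overlap. Before scaling, the Gcg spots of ADM (4127 to 4882 intensity units) and duct (4088 to 4464) did overlap. The mean levels were 5.98 ± 0.0754, 5.48 ± 0.0434 and 4.74 ± 0.112 (SD over 10 spots of 1 array each). Gcg signal on ADM exceeded that on acinar 2.37-fold (1.24 log2 units), and it was 1.67-fold higher in duct than in acinar (0.74, or 1.35 with normexp) and 1.41-fold higher in ADM than in duct (0.50).

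Somatostatin signal was highest on duct. The 10 Sst spots ran from 3.82 to 4.02 on ADM, from 4.83 to 4.98 on duct and from 3.65 to 3.94 on acinar. In these scaled levels the spots of ADM and acinar overlapped, and those of duct stood above both. Before scaling, the Sst spots of ADM (1018 to 1168 intensity units) and acinar (442 to 540) did not overlap. The mean levels were 3.92 ± 0.0640, 4.90 ± 0.0545 and 3.81 ± 0.0956 (SD over 10 spots of 1 array each). Sst was 2.13-fold higher in duct than in acinar (1.09), and ADM differed from duct by −0.98, just inside 2-fold. ADM and acinar differed by 0.11.

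Ppy and Pyy, the genes of pancreatic polypeptide and of peptide YY, a gut hormone that islets also make, are related and are direct neighbours on chromosome 11. Ppy had levels of 0.87 on ADM, 2.76 on duct and −1.19 on acinar, from signals of 132, 649 and 15.5 intensity units. It was 15.4-fold higher in duct than in acinar (3.95), 4.17-fold higher on ADM than on acinar (2.06), and differed by −1.89 between ADM and duct. The duct-acinar value was the widest of the 30 differences of the 10 genes and lay above 97.7% of the genes compared. Pyy had levels of 0.40 on ADM, 1.79 on duct and −0.11 on acinar. It was 3.74-fold higher in duct than in acinar (1.90), differed by −1.39 between ADM and duct, and by 0.51 between ADM and acinar. Both genes thus had the order duct, ADM, acinar, with the larger gaps for Ppy. The acinar level of Ppy was not far above −2.04, the lowest level well above background on that array, and normexp reduced its difference to 2.42 between duct and acinar and to 0.86 between ADM and acinar.

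The granins had their highest level on ADM and their lowest on duct. Chga, which helps to form dense-core granules, had levels of 5.01 on ADM, 3.45 on duct and 3.79 on acinar. On ADM it was 2.31-fold above acinar (1.21) and 2.94-fold above duct (1.55). Duct and acinar differed by −0.34, and that sign turned with normexp (0.33) and with median scaling (0.04). Chgb, its granule partner, had spots from 1.34 to 1.68 on ADM, from −1.89 to −1.34 on duct and from −0.88 to −0.05 on acinar. These scaled levels did not overlap between arrays. Before scaling, the Chgb spots of duct (25.8 to 37.9 intensity units) and acinar (19.1 to 33.9) did overlap. The mean levels were 1.55 ± 0.105, −1.66 ± 0.185 and −0.25 ± 0.243 (SD over 10 spots of 1 array each). Chgb was 9.27-fold higher in ADM than in duct (3.21), 3.48-fold higher in ADM against acinar (1.80), and differed by −1.41 between duct and acinar, which made it the single gene of the 10 at least 2-fold lower there. With normexp these 3 differences of Chgb were 1.81, 1.11 and −0.70 in that order.

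Pcsk2, the convertase that cuts proglucagon to glucagon in alpha cells, had levels of 3.07 on ADM, 3.53 on duct and 2.15 on acinar with its brighter probe. It was 2.61-fold higher in duct than in acinar (1.38), and differed by 0.93 between ADM and acinar and by −0.45 between ADM and duct. The second probe of Pcsk2 was not well above background on any array, with levels of −5.16 on ADM, −4.57 on duct and −3.90 on acinar. The mean of both probes therefore turned the ADM-acinar difference to −0.17 and reduced that of duct and acinar to 0.35, and the values of Pcsk2 rest on 1 probe.

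Set against all genes, the 10 genes leaned towards ADM over acinar. All 10 were above 0 in ADM against acinar (9 with the mean of probes), and 5 of 10 were at least 2-fold higher and 0 at least 2-fold lower. Of the 13632 genes compared, 21.8% had at least 2-fold more signal on ADM and 22% at least 2-fold less, and 44.4% lay above 0. The median of the 10 was 1.07, and that of all genes 0, with some bounds set to 0 by the processing. Over the 9539 genes above background on all 3 arrays, as the 10 were, the median was −0.23. Of these 9539 genes 1688 were at least 2-fold higher and 2062 lower. Past 2-fold were Ppy, Chgb, Iapp, Gcg and Chga, each 2.31-fold to 4.17-fold higher. The counts and medians were not tested, and the genes were chosen with earlier results of these data known.

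Between duct and acinar 6 of the 10 genes were above 0, and 9 with normexp and 8 with median scaling. At least 2-fold higher in duct were 4 (Ppy, Pyy, Pcsk2 and Sst), where 27.4% of 13826 genes were, and 1 was lower (Chgb), where 24.6% were. The median was 0.42, against 0 for all genes, and it was 1.02 with normexp, 0.81 with median scaling and 0.23 with the mean of probes. Between ADM and duct, 3 of 10 were at least 2-fold higher in ADM (Chgb, Chga and Iapp) and 2 lower (Ppy and Pyy), where 21.6% and 24.8% of 14475 genes were. The median was 0.69, against −0.05 for all genes. The 2 counts for ADM against duct lay near the shares of all genes. Median scaling moved the median of all genes to 0.28 for duct against acinar and to −0.20 for ADM against duct, and changed the part of all 2-fold calls that was higher in duct than in acinar to 64.7%, from 52.7% with the 75th percentile.

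**Figure D2:**
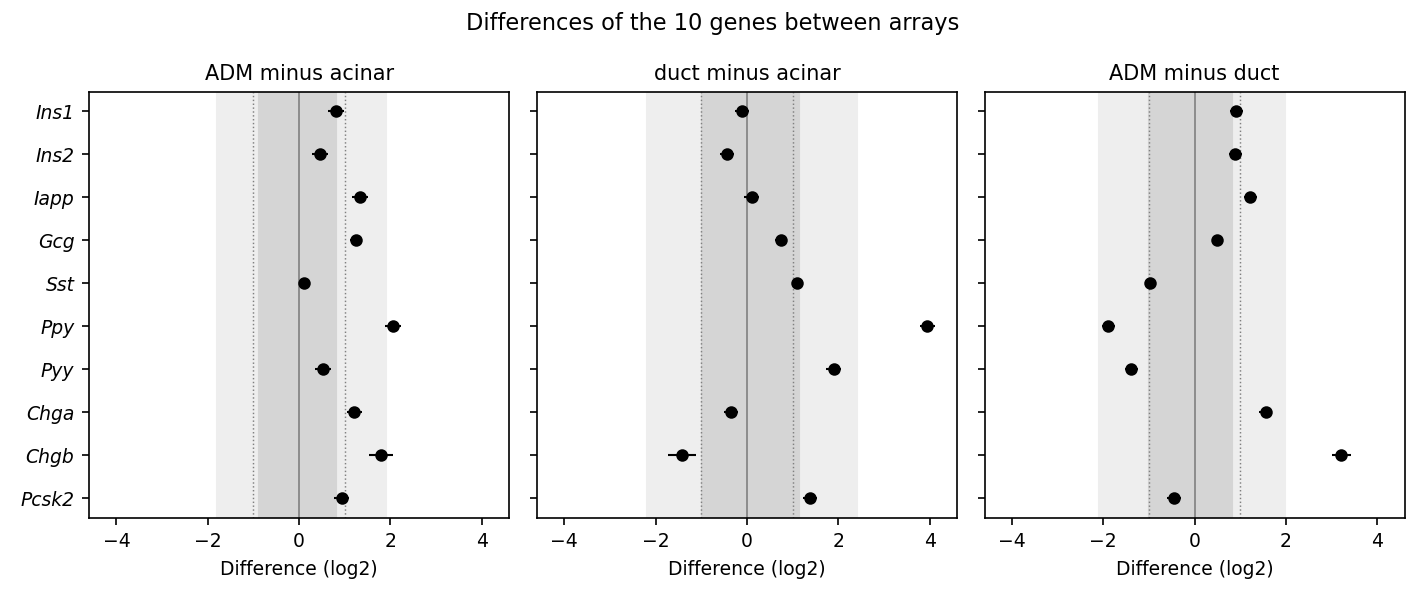
Difference of each gene (log2 units) between ADM and acinar, duct and acinar, and ADM and duct. Points are differences, bars the spot error (1 SD), the dark grey band the range from the lower to the upper quartile of all genes compared, the light band that from the lowest to the highest decile, and dotted lines 2-fold. All 10 points lie right of 0 for ADM minus acinar, and Ppy (3.95 for duct minus acinar) and Chgb (3.21 for ADM minus duct) lie outside the bands.

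The 10 genes did not keep their proportions from array to array. Differences between genes on the same arrays carry no scaling. For ADM against duct the 10 genes spanned 5.10 log2 units (34.3-fold), from Ppy to Chgb. For duct against acinar they spanned 5.36, from Chgb to Ppy, and for ADM against acinar 1.95, from Sst to Ppy. Insulin and somatostatin differed 3.66-fold in their ADM to duct ratio (Ins2 against Sst), and Chgb and Sst 18.3-fold. Chga and Chgb, of 1 family, differed 3.15-fold. Background correction does enter these values, and the widest rest on the dim genes Ppy and Chgb. With normexp the spans were 3.37 for ADM against duct, 3.11 for duct against acinar and 1.46 for ADM against acinar (from Pyy to Chga), and the ADM to duct ratios of Chgb and Sst differed 7.53-fold and those of Chga and Chgb 1.36-fold.

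The summed signal of the 10 genes was 0.468% of the signal of all named genes on ADM, 0.342% on duct and 0.193% on acinar. That is a ratio of 2.43 for ADM over acinar, 1.77 for duct over acinar and 1.37 for ADM over duct. Ins1 and Ins2 held most of it, 85.0% on ADM, 80.5% on duct and 89.1% on acinar. The other 8 genes held 0.0704% of named signal on ADM, 0.0666% on duct and 0.0211% on acinar. Probes differ in brightness per transcript, so these shares weigh the bright insulin probes most.

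Other endocrine genes were counted by list, with the 2-fold shares of all genes given above as the background. Of 14 further granule genes compared between ADM and acinar, 2 were at least 2-fold higher and 5 lower, with a median of −0.85. Scg2, a granin relative, was 1.44 log2 units higher in ADM than in acinar, whereas the granule membrane proteins Ptprn2 (−3.23) and Ptprn (−1.13) and the vesicle GTPase Rab3a (−1.85) were lower. Between duct and acinar 2 of 13 were higher and 5 lower, with Ptprn2 at −5.11, Ptprn at −1.90 and Snap25, a membrane fusion protein, at −1.30. Between ADM and duct 2 of 14 were higher and 3 lower, with Ptprn2 at 1.88, Rab3a at −2.16 and the amidating enzyme Pam at −1.04. The convertase Pcsk1, which cuts proinsulin, was not well above background on any array, nor was the granin-like Vgf.

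Of 10 genes of glucose sensing and beta-cell maturity, ADM exceeded acinar by 2-fold in 1 and fell short of it by 2-fold in 3. The lower ones were the granule-docking protein Sytl4 (−2.44), the calcium channel Cacna1d (−1.72) and the channel Trpm5 (−1.07). Between duct and acinar 2 of 11 were higher and 3 lower, among them Slc30a8, the zinc transporter of insulin granules (1.87), Cacna1d (−2.51) and Trpm5 (−1.27). Between ADM and duct 3 of 11 were higher and 3 lower, with Slc30a8 at −1.80 and Sytl4 at −1.60. Medians were 0.04, −0.34 and 0.02 for the 3 comparisons in that order.

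Of 11 endocrine transcription factors, ADM exceeded acinar by 2-fold in 1 and fell short of it in 2, Pdx1 (−2.15) and Hhex (−1.22). Pdx1 is needed for beta-cell identity and Hhex for delta cells. Between duct and acinar 3 of 10 were higher, Hhex (1.78) among them, and 0 lower, and between ADM and duct 3 of 11 were higher and 3 lower. There Neurod1, a factor of all endocrine lineages, was 2.15-fold higher in ADM, Pdx1 was at −2.82, and Hhex had levels of 1.04 on ADM and 4.04 on duct. The beta-cell factors Nkx2-2 (4.08 on ADM, 3.58 on duct, 3.75 on acinar) and Mafa (5.16, 5.41 and 5.63 in that order) were within 2-fold in every comparison. Pax6 and Rfx6, which endocrine cells need, and Irx2, of alpha cells, were not well above background on any array.

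Among other genes of alpha, delta, PP and epsilon cells, 3 of 9 were higher on ADM than on acinar and 2 lower, and 5 of 9 were higher in duct than in acinar, with 1 lower (median 1.40). Rbp4, a retinol carrier, was 2.56 higher in duct than in acinar, Tm4sf4 1.46 and Ttr, the thyroxine carrier of alpha cells, 1.40. In ADM against acinar Rbp4 was at 1.36, Tm4sf4 at 1.15 and the amino acid transporter Slc7a2 at −2.31. Between ADM and duct 2 of 9 were higher and 4 lower, with Slc7a2 at −2.54, Ttr at −2.03 and Rbp4 at −1.20. Hhex belongs to this list too.

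Markers of other cells were counted over their whole lists. Nerve and Schwann cell markers, which matter since neurons also hold granins and somatostatin, held 0.0126% of named signal on ADM, 0.0258% on duct and 0.0104% on acinar. Of 15 such genes 6 were well above background on ADM, 6 on duct and 4 on acinar. The neuronal genes Uchl1, Stmn2, Nefl and Nefm were not well above background on any array. Others were: Th, which makes catecholamines, had levels of 0.40 on ADM, −0.52 on duct and 0.27 on acinar, and the tubulin Tubb3 −1.73 on ADM, −1.04 on duct and −1.03 on acinar. Prph and Gap43 were well above background on ADM alone. Mbp, a myelin gene, was 1.99 log2 units higher in ADM than in acinar and 3.38 higher in duct than in acinar. All 16 acinar enzyme genes were at least 2-fold below acinar on ADM (median −2.58) and on duct (−5.81), and all 16 were at least 2-fold above duct on ADM (3.34). On ADM, 10 of 12 macrophage markers were at least 2-fold above acinar (median 2.47, 0 lower) and 10 of 12 above duct (2.40, 1 lower). Between duct and acinar 2 of the 12 were higher by that fold and 6 lower. For fibroblasts and stellate cells, 9 of 11 markers were above acinar by that fold on ADM (1 lower) and 9 of 12 on duct (1 lower). For endothelium, 5 of 9 markers were above acinar on ADM (2 lower) and 5 of 10 on duct (1 lower). Between ADM and duct 2 of 11 endothelial markers were higher and 5 lower. Their part in the islet gene differences was not tested.

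**Figure D3:**
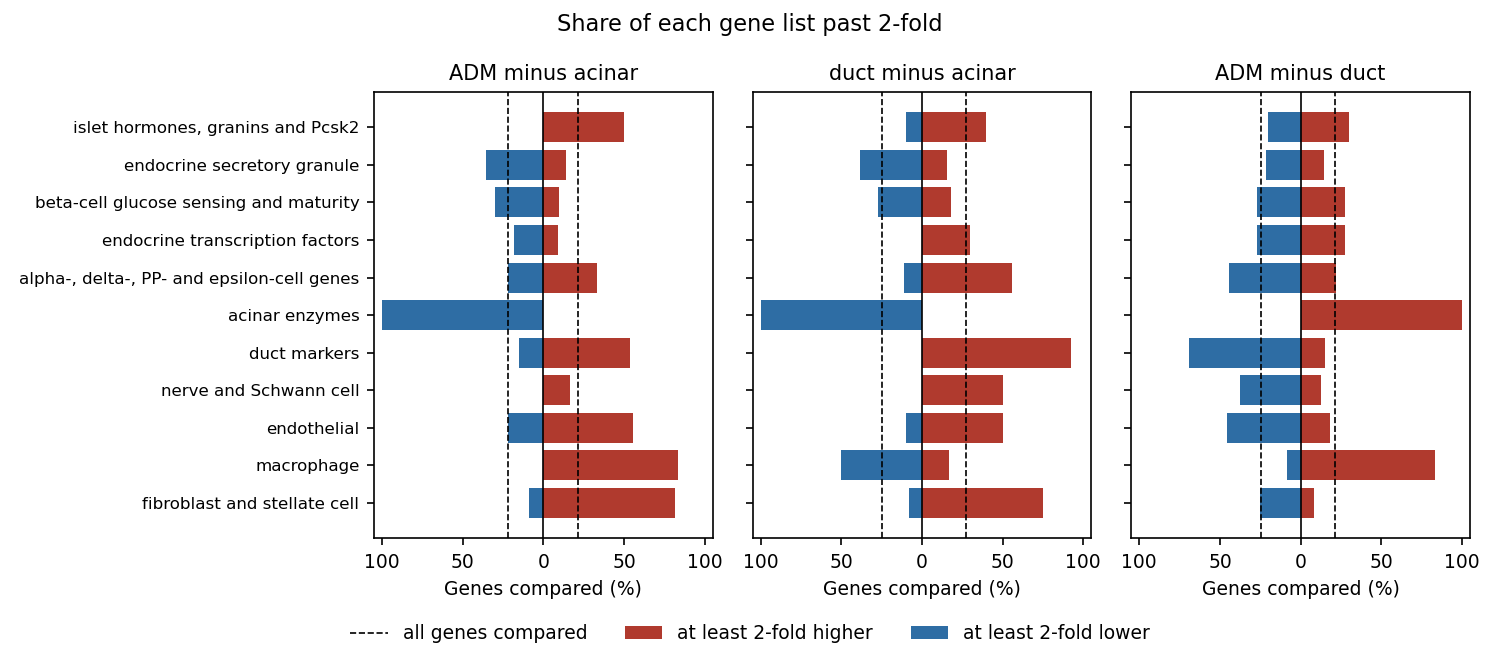
Percent of the genes compared in each list that were at least 2-fold higher (red, right) or lower (blue, left) in the first array named, for ADM minus acinar, duct minus acinar and ADM minus duct. Dashed lines are the percent over all genes compared. For ADM minus acinar the 10 islet genes reach 5 of 10 higher. The other endocrine lists reach 2 of 14 (granule), 1 of 10 (glucose sensing), 1 of 11 (transcription factors) and 3 of 9 (alpha, delta, PP and epsilon). Of these other lists only the last lies past the dashed line of all genes there.

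The pattern of Ins2, the brightest of the 10 on average, was compared with that of 9538 other genes well above background on all 3 arrays, by the distance between their pairs of differences (ADM minus acinar, duct minus acinar). Over only 3 arrays, 125 genes lay within 0.25 log2 units of it. The closest were Sdsl (distance 0.01), Nrm (0.02) and Vmn2r29 (0.02). Ins1 ranked 470th at a distance of 0.49, Chga 1300th (0.76), Iapp 2342nd (1.02) and Ppy 9194th (4.67). The distances describe 3 arrays and select no partner genes.

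**Figure D4:**
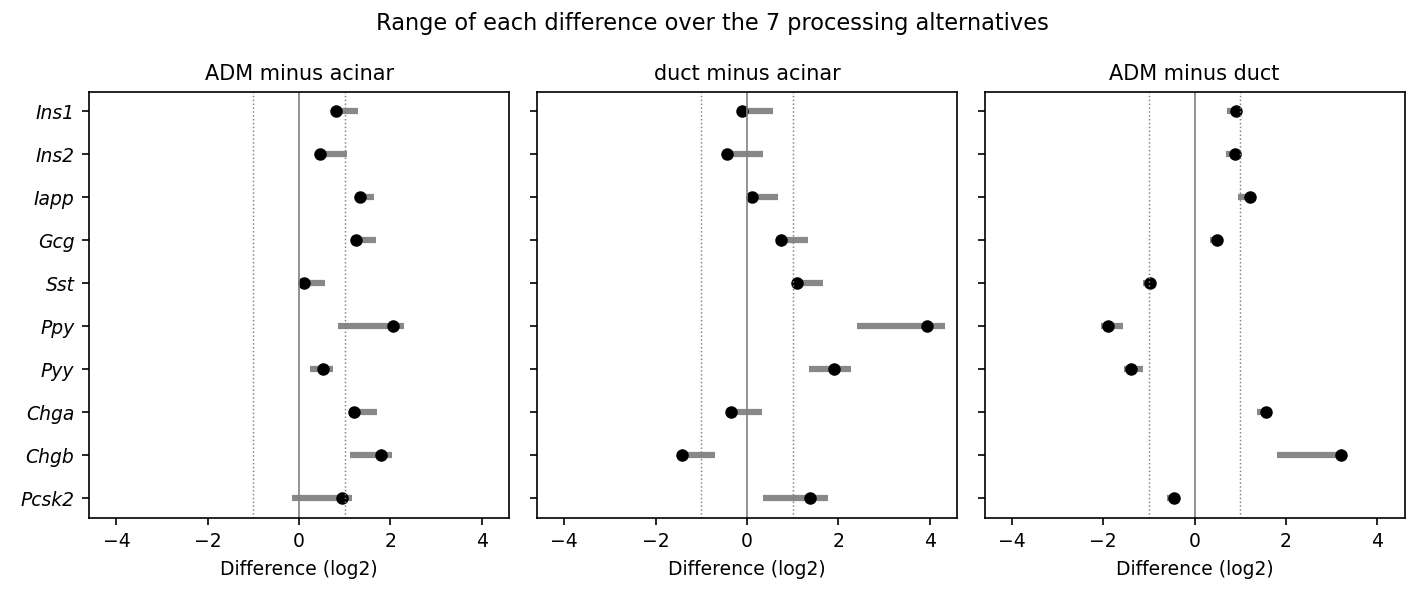
Difference of each gene (log2 units) as reported (point) and its range over 7 processing alternatives (bar), with dotted lines at 2-fold. The bars cross 0 for Ins1, Ins2 and Chga in duct minus acinar and for Pcsk2 in ADM minus acinar, and the widest bars belong to Ppy, Chgb and Pcsk2.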

How the data were processed

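RNA of laser-microdissected ADM, duct and acinar cells was purified, amplified, labelled with Cy3 and hybridised to Agilent mouse arrays, per the labels' protocols. The deposited scanner tables give the linear intensity of each spot. Agilent Feature Extraction 11.5.1.1 subtracted background and removed the spatial trend within each array, per the file headers, with no scaling between arrays. The deposited value table holds log2 values of 32905 of the same probes, which differed from the log2 scanner signal by 1 constant per array to within 0.001, so its scale and direction are known. Its probe filter is not given in those sources. Its medians were −0.56 on ADM, −0.63 on duct and −0.57 on acinar.

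Of 62976 spots an array, 3671 controls and the spots with an outlier flag (117 on ADM, 110 on duct, 115 on acinar) were left out. Spots were averaged as log2 signal over 55664 probes, and each array's 75th percentile was subtracted. A probe counted as well above background where most of its spots did, which held for 49.7% on ADM, 50.0% on duct and 40.7% on acinar. Of the probes 28020 were named through a RefSeq table of GRCm38.p6, and 27644 stayed unnamed here. The probes were annotated on mm9, so no coordinates were joined. A gene took its brightest probe. Genes above background on 1 array only give bounds, against the lowest level well above background, and are counted with the rest. Differences are first array minus second, and 2-fold is the call. The text names members, the 3 genes nearest to Ins2, and list genes above background on all 3 arrays with at least 2-fold differences (up to 4 a comparison), beside list genes at background. Nkx2-2, Mafa, Th, Tubb3, Prph, Gap43, S100b and Sox10 were named after their values were seen. The members, lists and naming rule were chosen with earlier results of these data known. Python 3.11.15, pandas 2.3.3, R 4.3.3 and limma 3.58.1 were used. The code that computes and counts differences was checked on simulated data, which tests no difference between arrays. Some list genes are not reported here by name. Normexp used the median spot signal, since a mean signal column was not used here. Precision is limited by the number of arrays, 1 a group.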

Additional observations from a re-analysis of the deposited data

How the results depend on the processing

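Of the 30 differences of the 10 genes, 26 kept their sign under all 7 alternatives, and of the 15 past 2-fold 11 also stayed past it. Of the counts of 2-fold differences over the 10 genes, 1 moved by more than 1.5 times: with normexp 0 of the 10 genes, in place of 1, were at least 2-fold lower in duct than in acinar. The summed share of the 10 genes was 0.834% on ADM, 0.609% on duct and 0.331% on acinar with the mean of probes, and 0.421%, 0.313% and 0.171% with normexp, so that ADM stayed highest and acinar lowest. Over all genes, normexp gave 1681 higher and 927 lower for ADM against acinar (2966 and 2999 as reported), 2845 and 1494 for duct against acinar (3791 and 3398), and 1472 and 2147 for ADM against duct (3121 and 3594). Normexp adds an offset of 50 intensity units, which by construction shrinks differences of dim probes. Genes above background on all 3 arrays alone gave 1688 higher for ADM against acinar, 2298 higher for duct against acinar, and 1717 higher and 2055 lower for ADM against duct. With no filter 7969 genes were lower in ADM and 8829 lower in duct than in acinar. No paired analysis was possible because each group had 1 array. Gcg passed 2-fold between duct and acinar with normexp (1.35) and median scaling (1.13), and Sst between duct and ADM with the same settings (−1.10 and −1.14 for ADM minus duct). Pcsk2 passed it between ADM and acinar with those and with the percentile over probes above background on all arrays (1.13, 1.16 and 1.02), and Ins1 with median scaling (1.04). Ins1 passed it between ADM and duct with the deposited value table (1.01). Signal over background limits most the dimmest values, Ppy on acinar (15.5 intensity units) and Chgb on duct (30.2) and acinar (29.6).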

Other observations

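Some genes of the endocrine lists were well above background on only part of the arrays. They were picked after their values were seen. Slc2a2, a glucose transporter of mouse beta cells and of liver, had levels of −1.23 on ADM and 2.86 on duct, and was not well above background on acinar. It was at least 29.9-fold higher in duct than in acinar (4.90 log2 units), and differed by −4.09 between ADM and duct. Gc, a vitamin D carrier found in alpha cells, had levels of 1.31 on ADM and 1.24 on acinar, and was not well above background on duct.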
